A study of Mus musculus with 43 samples.

Results

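Mitochondrial fatty acid oxidation and ketone body metabolism were followed from the start to the end of the renal proximal tubule in female mice, through 39 genes taken by symbol from the 54532 genes of the deposited expression table. The 39 cover the activation of fatty acids, their entry into mitochondria, each turn of beta-oxidation, the hand-over of electrons, and the use of ketone bodies. They were chosen by function, with earlier results of these data known, and all 39 symbols were found in the table. The samples were kidney proximal tubules of female C57BL/6 mice of 6 to 8 weeks, dissected by hand into the successive segments S1, S2 and S3, with 2 to 5 tubules in a sample. No treatment or gene alteration is given in the labels. RNA-seq was done on 6 S1, 6 S2 and 7 S3 libraries, whose titles carry 2 different numbers for S1, 3 for S2 and 4 for S3. S1 and S2 share 0 of these numbers, S1 and S3 share 2, and S2 and S3 share 2. The labels do not say whether the numbers name animals. If they do, animals and segments are fully confounded between S1 and S2 and partly in the other pairs.

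The authors gave 1 value per gene and segment, in TPM units, with each column brought to a common total, a level corrected for gene length that can be compared between genes. There is therefore no SD, no n and no replicate check on any value or difference below, no test could be run, and the read depth is unknown. A gene was compared where it had at least 1 TPM in at least 1 segment, which 37 of the 39 genes and 16053 genes in all had. Differences are on the log2(TPM + 1) scale, and a gene is called higher or lower where that difference is at least 1, which is 2-fold.

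The proximal tubule runs largely on fatty acids. Acyl-CoA synthetases activate fatty acids, the carnitine shuttle brings long chains into mitochondria, and each turn of the beta-oxidation cycle then removes an acetyl unit in a dehydrogenation, a hydration, another dehydrogenation and a thiolytic cleavage. Enzymes of the cycle are divided by the chain length they handle. Ketone bodies, made mostly in liver, are oxidised in the kidney by enzymes that turn beta-hydroxybutyrate into acetoacetate and then into acetyl-CoA.

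Of the 12 proximal tubule markers, those of the whole tubule were present in each segment at uneven levels, with Lrp2 at 143.0, 228.3 and 259.1 TPM and Pdzk1 at 1482.4, 1075.0 and 1164.7 TPM (values in the order S1, S2, S3, here and below). Slc34a1 had 10241.1, 2226.8 and 17.0 TPM, Aqp1 33.0, 382.7 and 561.0 TPM and Ggt1 75.1, 1304.8 and 1538.7 TPM. The S1 marker Slc5a2 had 2808.1, 1.3 and 0.5 TPM, and Slc7a12, a marker of the later segments, had 2.5, 1613.0 and 3047.9 TPM. Endothelial markers were also present. They summed to 76.1, 716.4 and 282.7 TPM, with 10 of 10 lower in S1 than S2, 7 of 10 lower in S1 than S3, 10 of 10 higher in S2 than S3 and none at 0. The 10 immune markers summed to 55.8, 277.7 and 93.3 TPM. Of these sums Cd74 held 50.1, 192.7 and 37.8 TPM and Csf1r 0.5, 32.0 and 46.9 TPM. All 7 of the 7 that could be compared were lower in S1 than S2, and 6 were higher in S2 than S3, but not Csf1r. Stromal and mural markers summed to 2.8, 23.4 and 2.7 TPM, and those of podocytes to 5.9, 21.3 and 9.5 TPM with Nphs1 at or below 0.2 TPM. Those of loop, distal tubule and collecting duct summed to 35.9, 33.0 and 34.9 TPM. These were mostly Fxyd4 in S1, with 32.3, 7.4 and 0.9 TPM, and Umod in S2 and S3, with 0.2, 21.1 and 29.1 TPM. Adipocyte markers summed to 0.6, 2.8 and 5.2 TPM, mostly Cidec in S2 and S3, with 0.1, 1.7 and 4.7 TPM. Adipoq was listed at 0. In such bulk samples, fewer cells of a type and less RNA per cell cannot be told apart.

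In total the 39 genes held 1.05%, 1.04% and 1.25% of all TPM, a summed level of 10543.7, 10437.2 and 12548.5 TPM. The genes behind this total differed between segments. Acsm2, which activates medium-chain acids, and Acadm, the medium-chain acyl-CoA dehydrogenase, made up 32.6%, 28.1% and 30.2% of it, but in S1 this was nearly all Acsm2 and in S3 nearly all Acadm. The 37 other genes together had 7111.6, 7508.1 and 8755.5 TPM. 14 of the 39 had at least 100 TPM in all 3 segments, 15 of the 37 compared were highest in S1, 5 in S2 and 17 in S3.

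Between the ends of the tubule, 9 of the 37 genes (24.3%) passed the threshold with the higher level in S1, against 10.5% of all genes compared, and 12 (32.4%) with the lower level in S1, against 13.1%. The 9 higher in S1 were Cpt1a, Acad11, Hadhb, Hadh, Acaa2, Acsl3, Acsl4, Acsm2 and Acsf2. The 12 lower in S1 were Acadm, Acadl, Acad9, Acad10, Acad12, Eci2, Etfb, Acsl5, Acsm1, Acsm5, Acot9 and Bdh1. Between S1 and S2, 3 genes (8.11%) were higher in S1, against 6.62% of all genes, and 10 (27.0%) were lower in S1, against 17.7%. Between S2 and S3, 5 genes (13.5%) were higher in S2, against 8.74% of all genes, and 1 (2.7%), Bdh1, was lower in S2, against 2.24%. Acsm3, 1 of the 10, and Cpt1c, 1 of the 5, passed the filter only through S2, with 1.3 and 2.0 TPM there. The shares between S2 and S3 and the share higher in S1 than S2 lay near those of all genes. Under median-of-ratios scaling, with 36 genes compared, the direction turned in both pairs. Then 13 were higher and 3 lower in S1 than S2, and 2 higher and 4 lower in S2 than S3. The direction among all genes turned too. In S1 minus S2, 34.1% of all genes were then called, and 69.2% of these calls were higher in S1. In S2 minus S3, 11.2% were called, and 42.8% of these calls were higher in S2.

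The same was counted for genes with at least 50 TPM in a segment, a cut chosen after the values were seen. Of 28 such genes of the pathway, 35.7% differed at least 2-fold between S1 and S2, 53.6% between S1 and S3 and 10.7% between S2 and S3. All 2954 genes at that level gave 27.5%, 34.2% and 9.41%. Over the 37 genes the S1 minus S2 differences had a median of -0.20, the S1 minus S3 differences one of -0.18 and the S2 minus S3 differences one of -0.03. All genes compared had medians of -0.18, -0.0053 and 0.12. A span of at least 4-fold between the highest and the lowest segment was reached by 8 of 37 genes (21.6%), against 10.8% of all genes. They were Acadm, Acad9, Acaa2, Acsl3, Acsl5, Acsm2, Acsf2 and Bdh1.

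**Figure D1:**
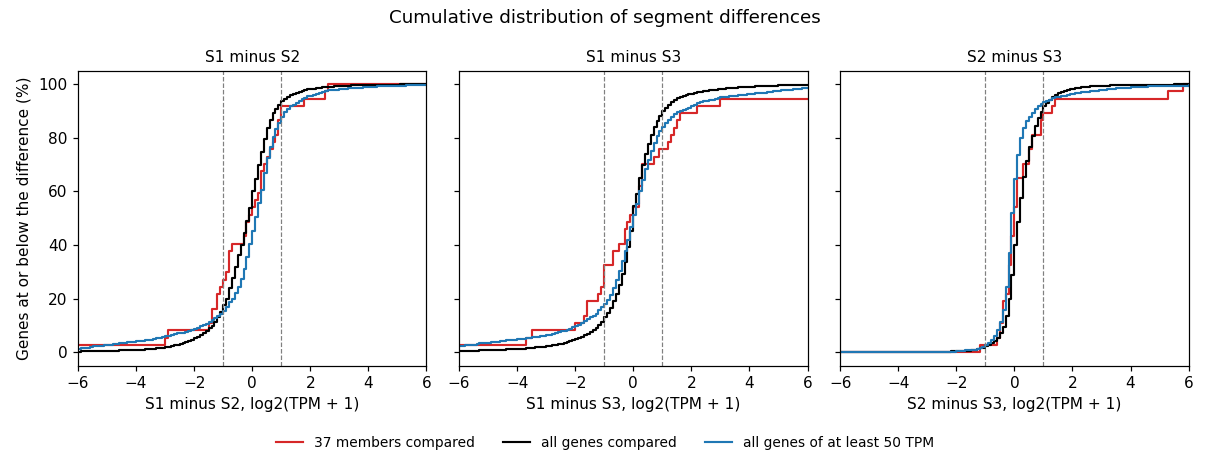
Cumulative share of genes (y axis, %) at or below each segment difference (x axis, log2(TPM + 1), cut at 6 in both directions) for the 37 genes compared (red), all 16053 genes compared (black) and all 2954 genes of at least 50 TPM in a segment (blue), with dashed lines at the 2-fold threshold. In S1 minus S3 the red line lies above the black one at the lower threshold and below it at the upper one, where 12 genes of the pathway were lower and 9 higher in S1.

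Among the 21 genes called between S1 and S3, the S2 level lay between the other 2 in all 21, as in 74.8% of the 3789 genes of the whole table called between S1 and S3. On the log2 scale S2 was nearer to S3 than to S1 in 17 of the 21 (81.0%), near the 79.2% of the 3789 genes. The 4 others were Acad11, Acaa2, Acsl3 and Acsm2, all higher in S1. The 10 genes lower in S1 than S2 went the same way in that pair as the endothelial and immune markers. Of these 10 genes only Acsm3 had its highest value in S2. All 10 endothelial markers and 6 of the 7 immune markers compared were higher in S2 than S3. The part of those markers in the result was not tested.

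**Figure D2:**
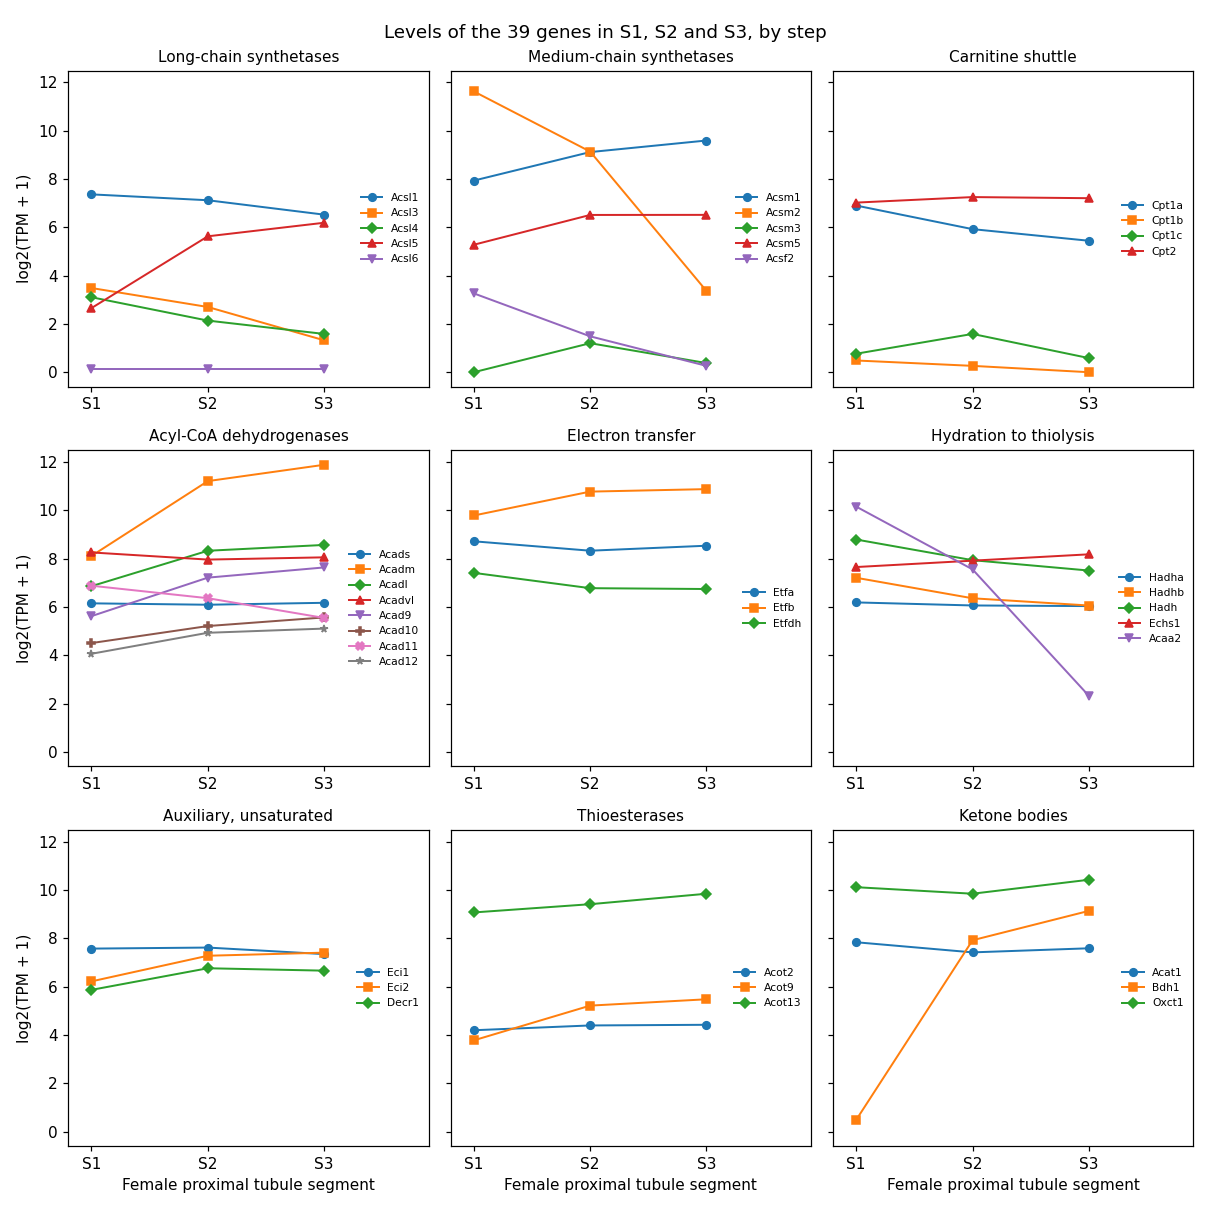
Level of each of the 39 genes (y axis, log2(TPM + 1)) in female S1, S2 and S3 (x axis), 1 panel per step, each point being the authors' single value for a segment. Acsm2 and Acaa2 are lower at each successive segment, with 9.3 and 4.0 TPM in S3, and Acadm, Acsl5 and Bdh1 are higher at each, while the carnitine and electron transfer panels are flatter.

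Among the synthetases that activate medium-chain acids, the leading gene changed along the tubule. Acsm2 had 3156.3, 560.9 and 9.3 TPM. Its level was 5.63 times higher in S1 than S2 and 60.3 times higher in S2 than S3, and the S1 minus S3 difference of 8.26 was the largest above 0 among the 37 genes. Acsm1, which prefers butyrate and similar short acids, ran the other way with 243.5, 553.1 and 771.1 TPM. Of the summed level of these 5 synthetases, Acsm2 made up 91.6%, 46.5% and 1.07%, and Acsm1 7.07%, 45.8% and 88.5%. Their sum was not constant, with 3446.2, 1207.3 and 871.3 TPM, 3.96 times higher in S1 than S3. Acsm5 followed Acsm1 at a lower level, with 37.8, 90.2 and 90.4 TPM. Acsf2 was weak and highest in S1, with 8.6, 1.8 and 0.2 TPM. Acsm3 had 0.0, 1.3 and 0.3 TPM, close to the 0.1 TPM to which the table is rounded.

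The 2 leading genes lie close together. In the RefSeq annotation of GRCm38.p6, Acsm5, Acsm2, Acsm1 and Acsm3 lie in this order on chromosome 7, Acsm2 at chr7:119554340-119600694 and Acsm1 at chr7:119617757-119662515. Acsm5 and Acsm2 are 10979 bases apart with 0 annotated genes between them, and Acsm2 and Acsm1 are 17062 bases apart with 1. The bases before the annotated starts of Acsm2 and Acsm1 are shown because these nearby genes have opposite profiles. Capitals mark AGGTCA, the core element of nuclear receptor binding sites, or its reverse complement TGACCT, and the Acsm1 stretch is cut to the 195 bases that lie before every annotated start. The letters come from RefSeq, read 5′ to 3′ on the strand of the gene, which is the plus strand for both.
Acsm2, chr7:119554090-119554339: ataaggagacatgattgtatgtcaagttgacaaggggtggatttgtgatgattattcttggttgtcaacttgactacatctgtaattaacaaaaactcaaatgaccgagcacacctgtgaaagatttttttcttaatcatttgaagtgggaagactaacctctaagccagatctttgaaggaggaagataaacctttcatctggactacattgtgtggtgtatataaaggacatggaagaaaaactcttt
Acsm1, chr7:119617562-119617756: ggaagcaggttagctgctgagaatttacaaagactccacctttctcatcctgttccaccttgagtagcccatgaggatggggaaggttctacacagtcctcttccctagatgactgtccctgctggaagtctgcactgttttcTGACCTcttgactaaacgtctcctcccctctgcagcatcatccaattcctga
The Acsm2 stretch holds 0 copies of the element and 36.0% G or C, the Acsm1 stretch 1 copy and 49.7% G or C.

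Among the long-chain synthetases the shares shifted too, but Acsl1 led in all 3 segments. Acsl1, the main long-chain synthetase of oxidative tissues, had 163.6, 138.1 and 91.0 TPM, under 2-fold between any segments. Acsl5 had 5.3, 48.4 and 71.9 TPM, 9.13 times higher in S2 than S1 and 13.6 times higher in S3 than S1. The share of Acsl5 in the summed level of the 5 long-chain synthetases was 2.84%, 24.8% and 43.2%, and that of Acsl1 87.6%, 70.6% and 54.7%. Acsl3, with 10.2, 5.5 and 1.5 TPM, and Acsl4, with 7.6, 3.4 and 2.0 TPM, were weak and highest in S1. Acsl6 was listed at 0.1 TPM throughout and was not compared. The step total was similar, at 186.8, 195.5 and 166.5 TPM.

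**Figure D3:**
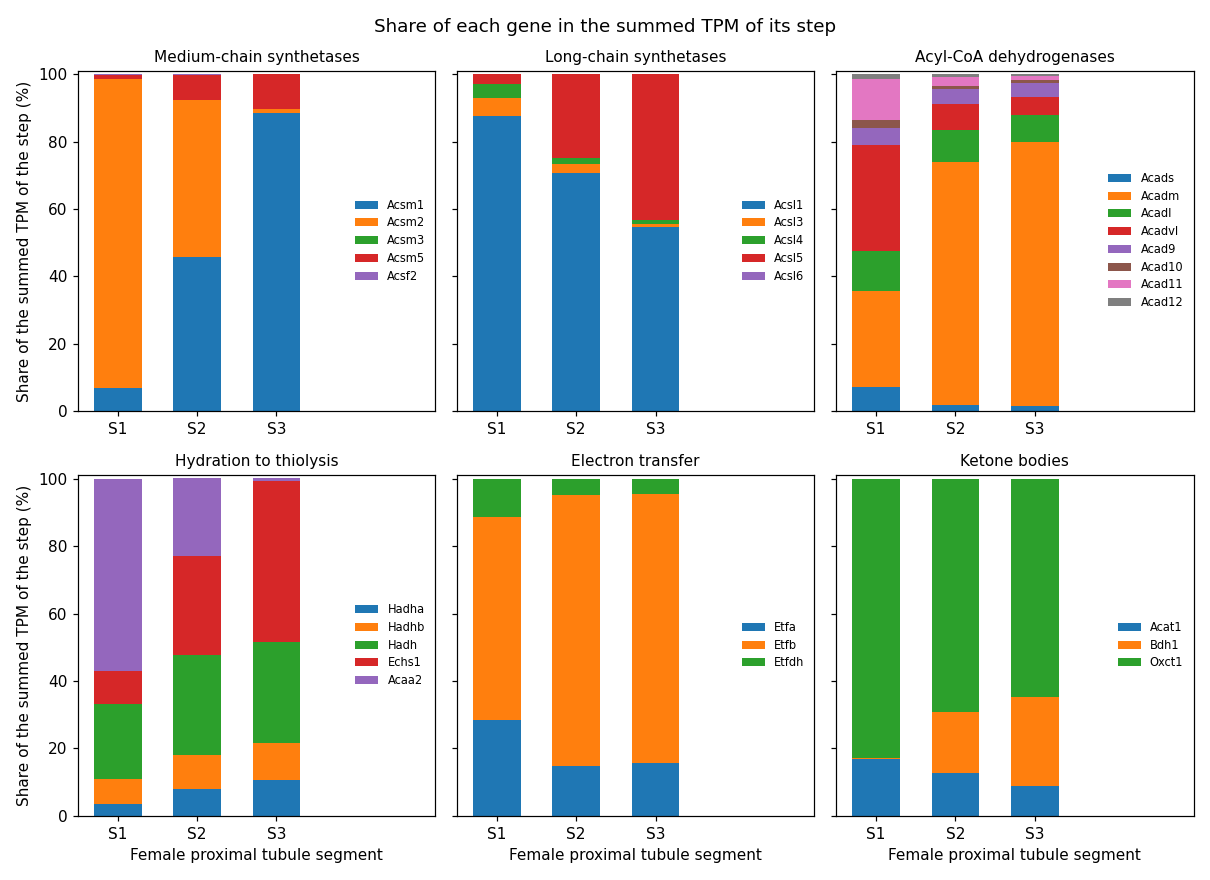
Share of each gene in the summed TPM of its step (y axis, %) in female S1, S2 and S3 (x axis), for 6 steps, each stacked bar adding up to the whole step. Acsm2 leads its step in S1 and Acsm1 in S3, Acsl5 has a greater share in S2 and S3, Acadm has 78.5% of the dehydrogenases in S3, and Acaa2 has 0.662% of its step there.

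In the carnitine shuttle, carnitine palmitoyltransferase 1 on the outer membrane is the controlled entry step for long chains. Its liver isoform Cpt1a had 118.4, 59.7 and 42.5 TPM, 2.79 times higher in S1 than S3. The muscle isoform Cpt1b, with 0.4, 0.2 and 0.0 TPM, was not compared, and the brain isoform Cpt1c had 0.7, 2.0 and 0.5 TPM. Nearly all CPT1 transcript in each segment was thus Cpt1a. Cpt2, which reforms the acyl-CoA inside, differed little with 129.0, 151.3 and 146.5 TPM. The ratio of Cpt2 to Cpt1a was 1.09 in S1, 2.53 in S2 and 3.45 in S3. Cpt1c was exactly at the 2-fold threshold between S2 and S3 and highest in S2, the segment with the highest endothelial, immune and stromal marker sums, whose part in this value was not tested.

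The first dehydrogenation had the greatest ratio of S3 to S1 among the 9 steps. The 8 acyl-CoA dehydrogenases summed to 968.2, 3297.8 and 4821.4 TPM, 4.98 times higher in S3 than S1. Acadm, for medium chains, accounted for most of it, with 275.8, 2368.2 and 3783.7 TPM, 13.7 times higher in S3 than S1. Its share of the step was 28.5%, 71.8% and 78.5%. Acadl, for long chains, followed with 115.2, 320.0 and 378.4 TPM, 3.28 times higher in S3 than S1. The enzymes at both ends of the chain-length range did not follow. Acadvl, for very long chains, had 304.9, 248.2 and 264.8 TPM and was the most abundant of the 8 in S1, where it held 31.5% of the step, against 7.53% in S2 and 5.49% in S3. Acads, for short chains, had 70.0, 67.2 and 71.1 TPM. Acadm had 3.94 times the level of Acads in S1, 35.2 times in S2 and 53.2 times in S3.

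Among the less classical dehydrogenases, Acad9, which also serves in the assembly of respiratory complex I, had 48.2, 147.4 and 197.9 TPM, 4.11 times higher in S3 than S1. Acad10 and Acad12 are 2087 bases apart on chromosome 5 and had similar profiles. Acad10 had 21.7, 36.0 and 46.4 TPM and Acad12 15.7, 29.5 and 33.4 TPM, both just past 2-fold between S1 and S3 with differences of -1.06 and -1.04. Acad11, which takes part in the breakdown of 4-hydroxy acids, was the single dehydrogenase higher in S1, with 116.7, 81.3 and 45.7 TPM. No dehydrogenase differed 2-fold between S2 and S3.

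The bases before the annotated start of Acadm, the gene of the 39 furthest above its S1 level in S3 in TPM, are shown with the same element in capitals. They lie on chromosome 3, and the gene is read from the minus strand at chr3:153922353-153944643.
Acadm, chr3:153944644-153944893: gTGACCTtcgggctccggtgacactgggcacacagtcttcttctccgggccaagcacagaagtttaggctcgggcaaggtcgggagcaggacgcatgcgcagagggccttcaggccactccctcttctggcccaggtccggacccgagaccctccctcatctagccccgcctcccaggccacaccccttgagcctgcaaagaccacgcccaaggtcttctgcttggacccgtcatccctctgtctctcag
The stretch has 64.0% G or C and 1 copy of the element, near its upstream end. Over windows from 250 bases before to 50 bases after each annotated start, the element in either direction was in 16.3% of 32851 windows of all genes and in 7 of 38 windows (18.4%) of 33 of the 39 genes. The 7 were those of Acadm, Cpt1c, Acsm1, Echs1, Acsl6, Acadvl and Cpt1a. The longer TCAAGGTCA, which contains AGGTCA and is the element of estrogen-related receptors, was in 0.423% of all windows and in 1 of the 38, that of Acsl6. A match describes the letters and is no evidence of binding.

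Electrons from the dehydrogenases pass to the electron transfer flavoprotein, a dimer of the Etfa and Etfb products, and on to ubiquinone through Etfdh. The subunits of the dimer had different profiles. Etfb had 882.2, 1751.7 and 1881.3 TPM, 2.13 times higher in S3 than S1, while Etfa had 420.1, 320.5 and 370.0 TPM. Transcripts of Etfb outnumbered those of Etfa 2.1 times in S1, 5.47 times in S2 and 5.08 times in S3. Etfdh had 169.2, 108.7 and 106.1 TPM, under 2-fold throughout. The Etfb difference was -0.99 for S1 minus S2, just short of the threshold, and -1.09 for S1 minus S3, just past it.

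The summed level of the later reactions of the cycle ran against that of the first dehydrogenation, but not every gene did. Of their 5 genes, 3 were called higher in S1 than S3 and 0 lower. Hadha and Echs1 were under 2-fold, and Echs1 was highest in S3. The 5 genes from hydration to thiolysis summed to 1998.7, 818.7 and 604.1 TPM, 3.31 times higher in S1 than S3. Acaa2, the thiolase for medium and short chains, made up most of that difference with 1137.7, 187.2 and 4.0 TPM, 284 times higher in S1 than S3. It held 56.9% of the step in S1, 22.9% in S2 and 0.662% in S3. Hadh, the hydroxyacyl-CoA dehydrogenase for medium and short chains, was 2.44 times higher in S1 than S3, with 442.1, 244.0 and 181.0 TPM. Echs1, the short-chain hydratase, had 200.2, 240.6 and 288.8 TPM and was the largest share of the step in S3, at 47.8%. The ratio of Hadh to Echs1 was 2.21 in S1, 1.01 in S2 and 0.627 in S3.

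For long chains these reactions are carried out by the trifunctional protein. Its alpha subunit Hadha had 71.9, 65.8 and 64.6 TPM and its beta subunit Hadhb, which holds the thiolase, 146.8, 81.1 and 65.7 TPM. Hadhb was 2.23 times higher in S1 than S3, and the ratio of Hadhb to Hadha was 2.04, 1.23 and 1.02. Acaa2 transcripts were 7.75 times those of Hadhb in S1, 2.31 times in S2 and 0.0609 times in S3. The gene pair is divergent, with 272 bases between the starts on chromosome 5, Hadha at chr5:30119423-30154980 and Hadhb at chr5:30155253-30184593. Most of that shared interval is shown, on the plus strand, because the genes on its 2 sides differed in profile.
Hadha and Hadhb, chr5:30155003-30155252: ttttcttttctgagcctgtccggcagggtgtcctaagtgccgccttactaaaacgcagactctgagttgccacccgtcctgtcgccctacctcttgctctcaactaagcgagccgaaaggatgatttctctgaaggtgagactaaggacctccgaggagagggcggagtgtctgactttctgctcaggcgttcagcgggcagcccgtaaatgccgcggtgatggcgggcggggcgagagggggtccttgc
It has 58.8% G or C and 0 copies of AGGTCA in either direction.

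Unsaturated chains need auxiliary enzymes that move or remove double bonds. Eci2, an enoyl-CoA isomerase found in mitochondria and peroxisomes, had 73.4, 154.2 and 168.6 TPM, 2.10 times higher in S2 than S1. Decr1, the dienoyl-CoA reductase, had 57.3, 107.4 and 100.2 TPM, with a difference of -0.89 for S1 minus S2 that missed the threshold. Eci1, the mitochondrial isomerase, had 189.5, 195.3 and 161.7 TPM. The 3 together had 320.2, 456.9 and 430.5 TPM.

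Thioesterases release fatty acids from CoA. Acot13 carried 94.7%, 92.4% and 93.5% of the summed level of the 3 listed, with 536.8, 680.3 and 918.6 TPM. Acot9 had 12.7, 36.1 and 43.5 TPM, 3.43 times higher in S3 than S1. Acot2 had 17.3, 20.0 and 20.4 TPM. Acot2 belongs to a cluster of nearly identical genes, so its reads and those of Acot1 may have been divided between them in ways that cannot be seen here.

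The 3 ketone genes included the gene with the greatest difference of the 39. Bdh1, which interconverts beta-hydroxybutyrate and acetoacetate, had 0.4, 241.1 and 561.1 TPM. The S1 minus S2 difference was -7.43, the S1 minus S3 difference -8.65 and the S2 minus S3 difference -1.22, and no ratio to S1 is given because the S1 value is under 1 TPM. Oxct1, which activates acetoacetate with CoA from succinyl-CoA, was high throughout, with 1108.8, 919.4 and 1373.0 TPM. Acat1, the thiolase that cleaves acetoacetyl-CoA, had 227.6, 170.0 and 191.2 TPM. Neither differed 2-fold between any segments. The ratio of Oxct1 to Acat1 was 4.87, 5.41 and 7.18, and Bdh1 took 0.0299%, 18.1% and 26.4% of the summed level of the 3 genes. The bases before the start of Bdh1, on the plus strand of chromosome 16 and ahead of the gene at chr16:31422297-31458901, are shown as those of the gene with the greatest difference.
Bdh1, chr16:31422047-31422296: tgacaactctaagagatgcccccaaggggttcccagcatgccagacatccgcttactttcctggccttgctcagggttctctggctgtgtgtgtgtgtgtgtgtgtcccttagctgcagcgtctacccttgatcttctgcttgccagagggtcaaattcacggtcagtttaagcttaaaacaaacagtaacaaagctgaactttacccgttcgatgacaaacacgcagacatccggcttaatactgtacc
They have 49.6% G or C and 0 copies of AGGTCA in either direction.

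Genes of alternative ketone body use and transport outside the 39 also differed by segment. Of 8 listed, 4 could be compared, with 2 higher and 2 lower in S1 than S2, 2 higher and 2 lower in S1 than S3, and 1 higher in S2 than S3. Aacs, a cytosolic enzyme that activates acetoacetate for lipid synthesis, was likewise low in S1, with 8.0, 192.6 and 229.3 TPM, 28.7 times higher in S3 than S1. Bdh2, a cytosolic dehydrogenase, ran the other way with 674.4, 293.4 and 164.0 TPM. The monocarboxylate carriers were opposed too, Slc16a1 with 32.4, 3.3 and 0.2 TPM and Slc16a6 with 0.2, 14.9 and 12.5 TPM.

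**Figure D4:**
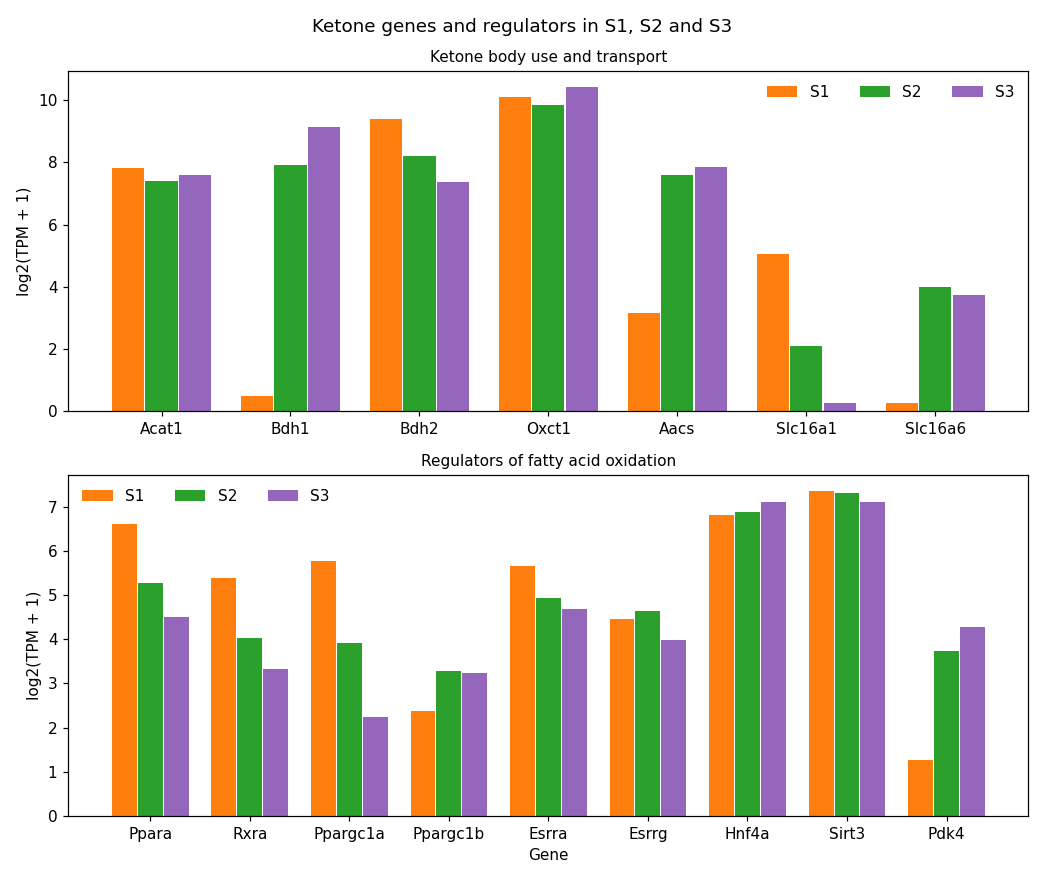
Levels (y axis, log2(TPM + 1)) of genes of ketone body use and transport (upper panel) and of regulators of fatty acid oxidation (lower panel) in female S1 (orange), S2 (green) and S3 (purple), each bar being the authors' single value. Bdh1 and Aacs are low in S1 and high in S2 and S3, Bdh2 and Slc16a1 show the reverse order, and Ppara, Rxra and Ppargc1a are highest in S1.

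Grouped by chain length, 8 genes for long and very long chains (Acadvl, Acadl, Acad9, Hadha, Hadhb, Cpt1a, Cpt2 and Acsl1) summed to 1098.0, 1211.6 and 1251.4 TPM. The 9 genes for medium and short chains (Acadm, Acads, Hadh, Echs1, Acaa2, Acsm1, Acsm2, Acsm3 and Acsm5) summed to 5563.4, 4312.7 and 5199.7 TPM. The first sum was 1.14 times higher in S3 than S1 and the second 1.07 times higher in S1 than S3. In the long-chain class 0 of 8 were higher and 2 of 8 lower in S1 than S2, and 2 higher and 2 lower in S1 than S3. In the other class 2 of 9 were higher and 4 of 9 lower in S1 than S2, and 3 higher and 3 lower in S1 than S3. Acsm3, 1 of these 4, passed the filter only through S2, with 1.3 TPM there. Some synthetases were left out of both classes. They were Acsl3, Acsl4 and Acsf2, higher in S1 than S3, Acsl5, lower in S1 than S3, and Acsl6, not compared. All genes gave 6.62% higher and 17.7% lower in the first pair and 10.5% and 13.1% in the second. The medium-chain enzymes at opposite ends of the cycle ran opposite ways, and the ratio of Acaa2 to Acadm was 4.13 in S1, 0.079 in S2 and 0.0011 in S3.

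**Figure D5:**
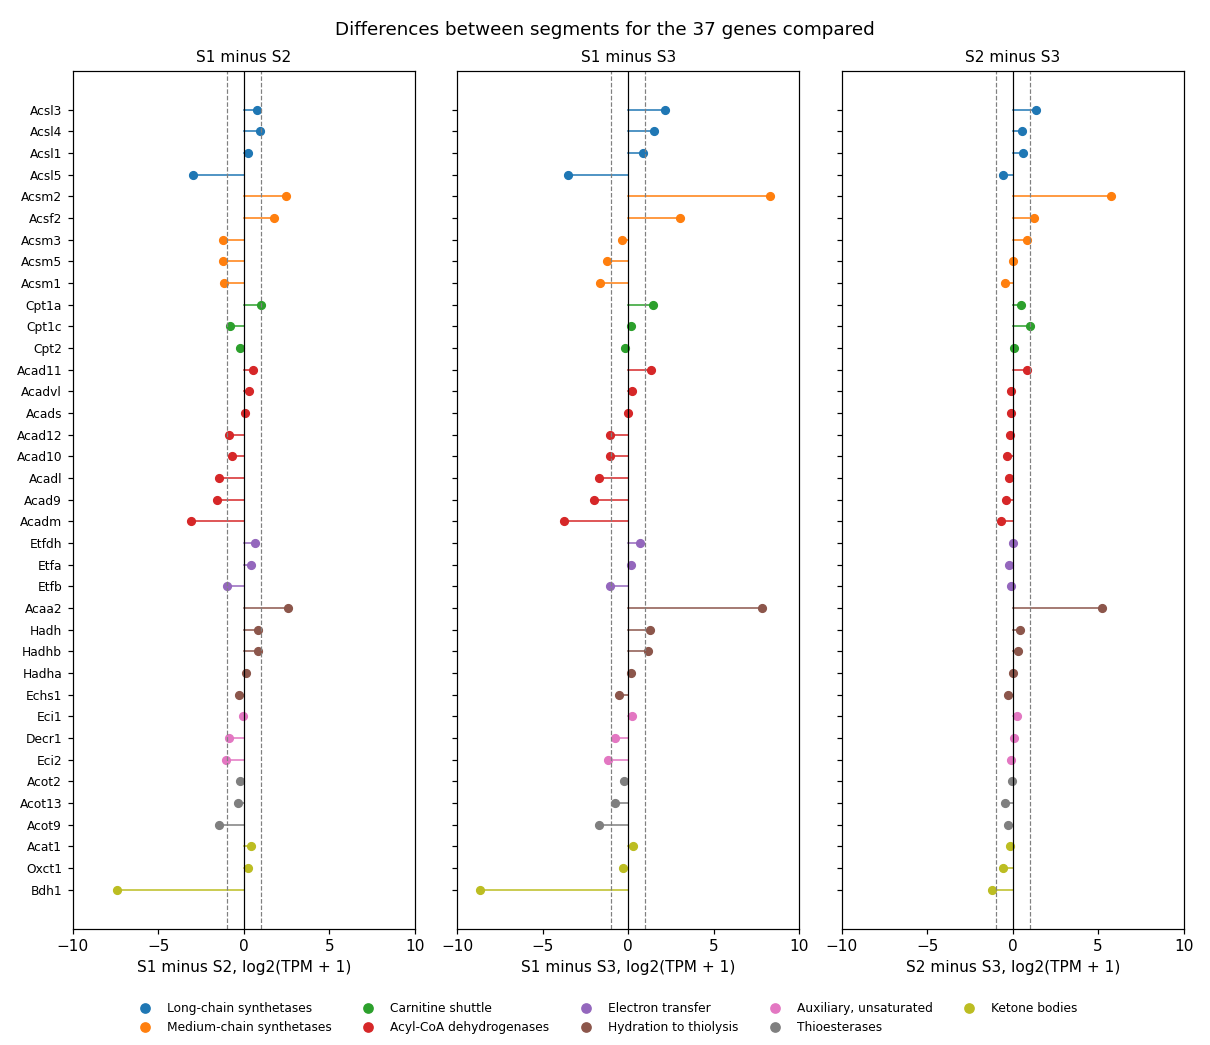
Segment differences (x axis, log2(TPM + 1)) of the 37 genes compared, sorted within steps and coloured by step, for S1 minus S2, S1 minus S3 and S2 minus S3, with dashed lines at the 2-fold threshold. Acsm2 and Acaa2 lie far to the right and Bdh1 far to the left in S1 minus S3, and in S2 minus S3 most points lie inside the dashed lines.

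Other mitochondrial genes were counted in the same way, beside the shares of all genes given above. A further list of 14 genes held acyl-CoA oxidation enzymes, but also genes of mitochondrial fatty acid synthesis, malonyl-CoA and FAD supply. Of these 14, 12 could be compared, and 0 reached 2-fold in any pair of segments. Ech1, a dienoyl-CoA isomerase, had 690.0, 969.2 and 1123.9 TPM, and Ivd, for isovaleryl-CoA, 128.4, 197.3 and 204.3 TPM. The 6 genes of propionyl-CoA breakdown, among them Mcee with 314.4, 233.0 and 209.0 TPM, also had 0 at 2-fold. A list of 24 nuclear-encoded mitochondrial genes was mostly of the respiratory chain and ATP synthase. It also held the citrate cycle enzyme Cs, an outer membrane channel and a protein import receptor. Of these 24, 3 were higher in S1 than S2, Cs among them, and 0 lower. In S1 against S3, 4 were higher in S1, again with Cs, and 1 lower, and 0 passed 2-fold between S2 and S3. The median difference of the 24 was 0.73 for S1 minus S2 and 0.63 for S1 minus S3, and 23 and 21 of the 24 were above 0.

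The supply of carnitine and the neighbouring peroxisomal pathway had differences in both directions. Of 8 further carnitine genes, 1 was higher and 1 lower in S1 than S2, and 3 were higher and 1 lower in S1 than S3. As shares, the first pair had 12.5% and 12.5%, beside 6.62% and 17.7% of all genes. The second pair had 37.5% and 12.5%, beside 10.5% and 13.1%. Slc22a5, the carnitine uptake carrier, had 273.5, 130.8 and 65.8 TPM, and Crot, the peroxisomal carnitine octanoyltransferase, 93.8, 212.4 and 337.7 TPM. Of 13 peroxisomal beta-oxidation genes, 1 was higher and 5 lower in S1 than S2, 2 higher and 4 lower in S1 than S3, and 1 higher in S2 than S3. The S1 minus S2 shares were 7.69% and 38.5%, beside 6.62% and 17.7% of all genes. Those of S1 minus S3 were 15.4% and 30.8%, beside 10.5% and 13.1%. The 7.69% of S2 minus S3 lay below the 8.74% of all genes. Acox2, which oxidises branched chains and bile acid precursors, had 5.9, 178.1 and 275.7 TPM. Ehhadh, the peroxisomal bifunctional enzyme, had 77.7, 665.6 and 831.0 TPM, and Eci3 51.7, 625.1 and 710.4 TPM.

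Outside the 39, further synthetases and thioesterases showed opposed members as well. Of 9 synthetase and acyl-CoA binding genes compared, 2 (22.2%) were higher and 1 (11.1%) lower in S1 than S2, and likewise between S1 and S3. All genes gave 6.62% and 17.7% in the first pair and 10.5% and 13.1% in the second. In S2 against S3, 1 (11.1%) was higher in S2, against 8.74% of all genes. Acss1, the mitochondrial acetate-activating enzyme, had 682.2, 11.8 and 0.5 TPM, and Slc27a2, a very-long-chain synthetase and transporter, 611.0, 4179.8 and 5475.5 TPM. Of 10 thioesterases compared, 1 (10.0%) was higher and 3 (30.0%) lower in S1 than S2. In S1 against S3, 1 (10.0%) was higher and 5 (50.0%) lower in S1. In S2 against S3, 2 (20.0%) were higher and 1 (10.0%) lower in S2, against 8.74% and 2.24% of all genes. Acot7, a cytosolic thioesterase, had 27.3, 298.5 and 769.5 TPM, and Acot11 had 21.3, 4.2 and 1.2 TPM.

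Among 18 regulators compared, 3 were higher and 3 lower in S1 than S2, 3 higher and 2 lower in S1 than S3, and 1 higher in S2 than S3. Shares for S1 minus S2 were 16.7% and 16.7%, beside 6.62% and 17.7% of all genes. For S1 minus S3 they were 16.7% and 11.1%, beside 10.5% and 13.1%. The 5.56% higher in S2 than S3 lay below the 8.74% of all genes. The receptor for fatty acids Ppara had 96.7, 37.5 and 21.8 TPM, and its partner Rxra 41.0, 15.4 and 9.0 TPM. The coactivator Ppargc1a had 53.7, 14.2 and 3.7 TPM, 14.5 times higher in S1 than S3. These 3 had the order of Cpt1a and the reverse of Acadm. Pdk4, a kinase that restrains pyruvate oxidation and a known PPAR target, had 1.4, 12.4 and 18.5 TPM. Hnf4a, with 112.2, 117.2 and 136.3 TPM, and the mitochondrial deacetylase Sirt3, with 162.2, 157.5 and 136.8 TPM, differed little.

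The counts between S1 and S2 depended on how the columns were put on a common scale. Among the 2-fold calls of the 37 genes, those above 0 made up 23.1% in S1 minus S2, 42.9% in S1 minus S3 and 83.3% in S2 minus S3, beside 27.2%, 44.4% and 79.6% among the calls of all genes. With median-of-ratios scaling over the 25489 genes above 0 in all segments, these splits were 81.2%, 55.6% and 33.3% for the 37 genes and 69.2%, 53.5% and 42.8% for all genes. Quantile normalization, under which 36 also passed, gave 28.6%, 42.9% and 75.0% for the 36 and 44.3%, 47.7% and 63.1% for all genes. The median-of-ratios factors shift log2 ratios by 0.71 in S1 minus S2, by 0.20 in S1 minus S3 and by -0.52 in S2 minus S3, less on the log2(TPM + 1) scale for low genes, and the median difference over all genes was then 0.48, 0.13 and -0.35. Over the 11008 genes with at least 1 TPM in all segments the same method shifted no log2 ratio further than by -0.060, and the splits were 23.1%, 42.9% and 80.0%. Under all 4 scalings tried, 9 of the 9 genes higher in S1 than S3 remained so, as did 8 of the 12 lower in S1 (Acadm, Acadl, Acad9, Acsl5, Acsm1, Acsm5, Acot9 and Bdh1). Between S1 and S2, Acaa2, Acsm2 and Acsf2 remained higher and Acadm, Acsl5 and Bdh1 lower in S1 under all 4, and between S2 and S3 Acaa2 and Acsm2 remained higher and Bdh1 lower in S2. Ratios and shares within a segment do not depend on a scaling factor.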

How the data were processed

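Per the labels' protocols, RNA from the dissected tubules was amplified by 10 to 12 PCR cycles (SMARTer V4 kit) and made into Nextera XT libraries, which were read in pairs of 50 bases. No molecular identifiers or strand marking are named, so PCR copies may remain. The spans of 22 of the 39 genes overlap another annotated gene, and reads from exons shared there may not be told apart. Overlap of exons was not counted. Per the submitters' processing notes, the build was mm10 and the tools included cutadapt, STAR and RSEM, with no version or annotation given in these sources.

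The authors deposited expression as TPM, 1 value per gene and segment, rounded to 1 decimal. Columns totalled 999906.7 (S1), 999988.2 (S2) and 999910.6 (S3). The step that combined libraries into these TPM values is not recorded in the labels. The 3 female columns were used. The other 5 value columns fit no RNA-seq group in the labels and were left out, and the 24 ATAC-seq libraries, of females and males, were not analysed here.

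From the deposited TPM, log2(TPM + 1) differences (pseudocount 1) were computed over genes of at least 1 TPM in a segment, and a difference of at least 1 was called. A plain ratio is printed only between values of 1 TPM or more. A low gene's fold is understated on this scale. Every one of the 39 genes is named. Of other lists, up to 4 genes with the greatest span and at least 10 TPM are named, plus defining ketone enzymes and regulators of at least 10 TPM. Cell type markers named outside this rule were chosen after their values were seen. Some genes that this rule or the lists take are left out and not reported here. The 39 genes and all lists were chosen with earlier results of these data known, and the promoter motifs after the values were seen. Sequences and positions come from RefSeq tables of GRCm38.p6. Python 3.11.15, numpy 2.4.6, pandas 2.3.3 and matplotlib 3.10.9 were used. Alternatives were other pseudocounts, filters, fold thresholds and scalings.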

Additional observations from a re-analysis of the deposited data

How the results depend on the processing

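Leaving out single libraries was not run, since the table holds 1 value per segment. No paired analysis was possible because the columns carry no title numbers and stand for whole segments. Read depth is unknown, so no limit from depth can be given, and values under 1 TPM rest on the rounding of the table. No called value changed sign under any alternative.

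Of the S1 minus S2 calls (13, with 3 higher and 10 lower in S1), a 1.5-fold threshold gave 24 with 9 higher, a 4-fold threshold 5 with 3 lower, and median-of-ratios scaling 13 higher and 3 lower. Of the S1 minus S3 calls (21, with 9 higher and 12 lower), the 4-fold threshold left 8, with 4 higher and 4 lower, and the other alternatives stayed within 1.5 times. Of the S2 minus S3 calls (6, with 5 higher and 1 lower in S2), a pseudocount of 5 left 3 with 2 higher, the 1.5-fold threshold gave 10 with 8 higher and 2 lower, the 4-fold threshold 2 with 2 higher and 0 lower, quantile normalization 3 higher, median-of-ratios scaling 2 higher and 4 lower, and genes of at least 50 TPM 3 with 2 higher. A span of 4-fold was reached by 8 genes, and by 5 with a pseudocount of 5. Looser or stricter thresholds change the calls of all genes too. Of all genes compared, the 1.5-fold threshold called 46.9% in S1 minus S2. At 4-fold the shares of all genes were 7.09% in S1 minus S2, 8.49% in S1 minus S3 and 2.12% in S2 minus S3. The 10 genes called in S2 minus S3 at 1.5-fold made up a share near that of all genes, so this count does not set the pathway apart.

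The median for S1 minus S2 (-0.20) was -0.043 with no filter and with a filter of 5 TPM, 0.57 under median-of-ratios scaling, -0.30 with Kap, Gpx3 and the mitochondrially encoded genes removed, and 0.0074 among genes of at least 50 TPM. The median for S1 minus S3 (-0.18) was -0.022 with no filter, -0.047 under quantile normalization and 0.091 under median-of-ratios scaling. The median for S2 minus S3 (-0.03) was -0.55 under median-of-ratios scaling. The sign of the S1 minus S2 and S1 minus S3 medians thus depends on these settings. Apart from the thresholds, which set the counts by construction, the cause was not tested. Under median-of-ratios scaling the S2 minus S3 totals of the dehydrogenases (-0.55) and of the ketone genes (-0.68) passed 2-fold, at -1.07 and -1.19, and the remaining 106 alternative values of step totals stayed on their side of the threshold. The genes of at least 50 TPM and the median-of-ratios scaling over genes of at least 1 TPM were alternatives chosen after seeing the data.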
